A study of Mus musculus with 6 samples.

Results

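Iron uptake, storage and release was described through 10 mouse genes, chosen by symbol from a deposited table of 17030 genes. The genes are Tfrc, Steap3, Slc11a2, Fth1, Ftl1, Ncoa4, Slc40a1, Hmox1, Aco1 and Ireb2, and all 10 had a row in the table. They were measured by RNA sequencing in SCC7, a mouse squamous cell carcinoma line, either after radiotherapy with 9 Gy (irradiated, n = 3) or without treatment (control, n = 3). Both groups are the same line in high-glucose medium with serum, and no genetic change is named for either. The dose stands in a protocol text that all 6 samples share, and the groups follow the treatment label. All samples carry the label day 0, so the time between irradiation and harvest is not stated. The labels do not say whether replicates are separate cultures, so every p-value here reflects sample-to-sample spread that may be technical only.

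Iron reaches most cells bound to transferrin, which is taken up by the transferrin receptor (Tfrc), reduced in the endosome by STEAP3 and moved to the cytosol by the transporter DMT1 (Slc11a2). Surplus iron is stored inside ferritin, a shell of heavy (Fth1) and light (Ftl1) chains, and is recovered when NCOA4 carries ferritin to the lysosome. Ferroportin (Slc40a1) is the iron exporter of the cell surface, and haem oxygenase 1 (Hmox1) frees iron from haem. Iron regulatory proteins 1 and 2 (Aco1 and Ireb2) bind a hairpin in the mRNA, the iron-responsive element, when iron is scarce. An element ahead of the coding sequence then blocks translation, as in the ferritins, and elements behind it protect the mRNA from decay, as in Tfrc. Free ferrous iron drives the lipid peroxidation of ferroptosis, a form of cell death named in the title of the study.

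Elements found by a single pattern are shown here, because their place in the mRNA bears on whether iron acts through level or translation. In mature mRNAs of GENCODE M21 (build GRCm38), the pattern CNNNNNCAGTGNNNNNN was searched on the sense strand, with the last base of the loop other than G and all 5 stem positions able to pair, G with T included. It was found in 4 members and in 222 of 21877 protein-coding genes (1.01%). Each element is printed 5′ to 3′ with the loop in capitals.
Fth1, 5′ UTR, chr19:9982732-9982760, plus strand: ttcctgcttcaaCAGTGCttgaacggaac
Ftl1, 5′ UTR, chr7:45459779-45459807, minus strand: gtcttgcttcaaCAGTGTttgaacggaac
Slc40a1, 5′ UTR, chr1:45925465-45925493, minus strand: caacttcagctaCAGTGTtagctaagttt
Tfrc, 3′ UTR, chr16:32631219-32631247, plus strand: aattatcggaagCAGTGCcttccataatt
Tfrc, 3′ UTR, chr16:32631598-32631626, plus strand: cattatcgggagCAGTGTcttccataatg
Tfrc, 3′ UTR, chr16:32631663-32631691, plus strand: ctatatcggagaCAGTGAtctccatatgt
Tfrc, 3′ UTR, chr16:32631710-32631738, plus strand: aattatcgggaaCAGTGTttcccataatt
Tfrc held 4 matches, all behind its coding sequence, and each of the other 3 genes held a single match ahead of it. In the other 6 members the paired pattern was not found in the annotated mRNAs, although all hold the loop letters CAGTGN, as do 90.3% of protein-coding genes. This says nothing of elements of another form. Slc11a2, not matched by the pattern, has messenger isoforms with an iron-responsive element, as given below.

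Levels are FPKM, fragments scaled by transcript length and library total, so genes can be set side by side. The ferritin chains stood far above the other members, and together they made up 1.13% ± 0.10 of the FPKM sum in irradiated libraries and 1.02% ± 0.16 in controls (SD, n = 3 each). In irradiated cells the order was Ftl1, Fth1, Hmox1, Steap3, Ncoa4, Slc11a2, Aco1, Tfrc, Ireb2 and Slc40a1, and the neighbours Ftl1 and Fth1, Aco1 and Tfrc, and Tfrc and Ireb2 overlapped. In controls the order was the same apart from Tfrc, which ranked above Aco1, and the ranges of neighbours overlapped for Ftl1 and Fth1 and for every pair of neighbours from Steap3 down to Ireb2. Ferroportin was close to absent, at 0, 0.02 and 0.06 FPKM in irradiated libraries and listed at 0 in all controls, and it was the member that did not reach the filter of 1 FPKM in at least 3 samples.

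**Figure D1:**
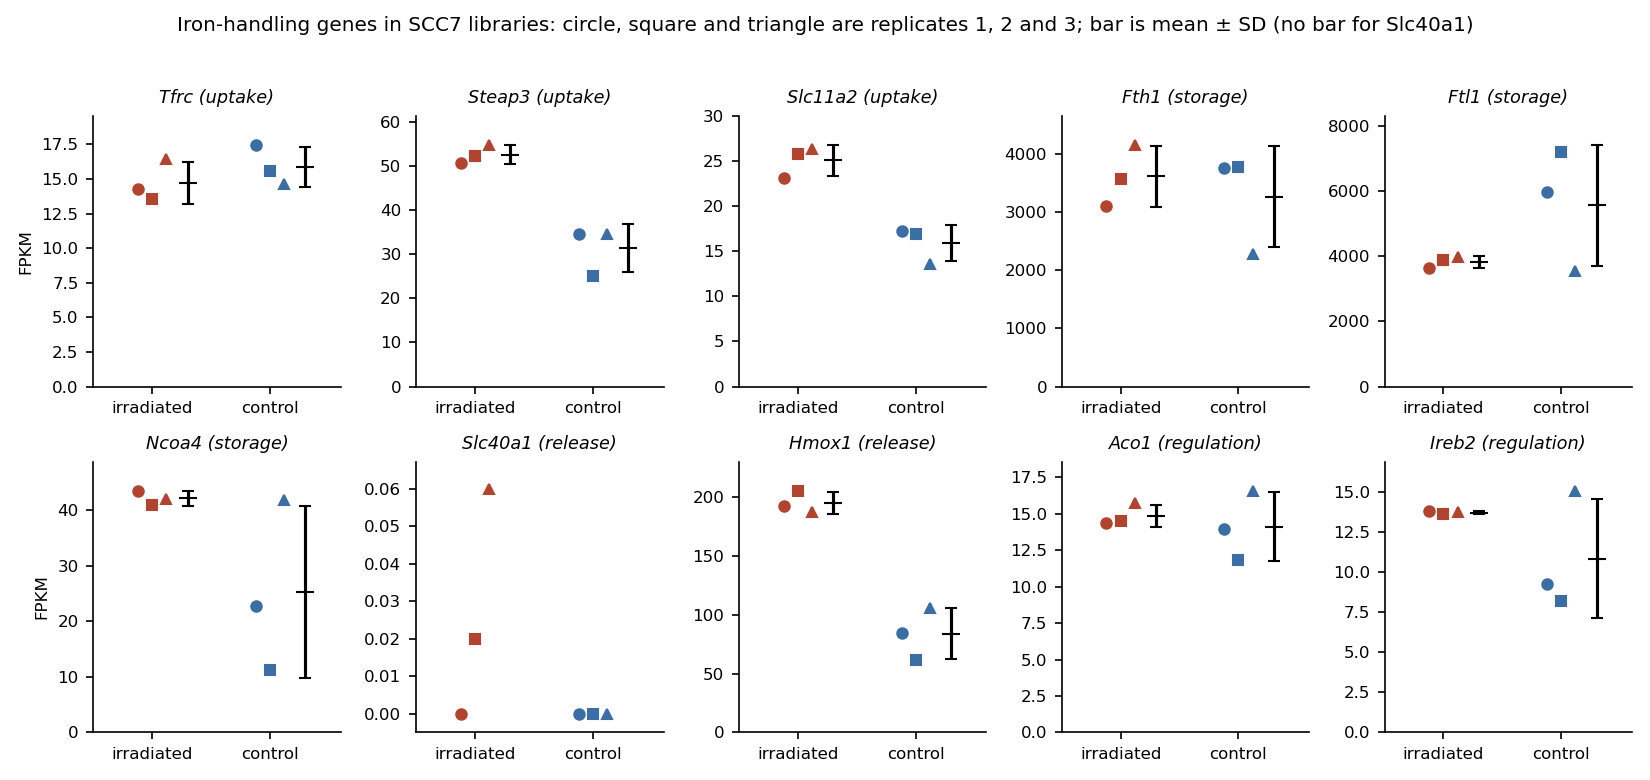
FPKM of each member in every library, irradiated on the left and control on the right, each panel with its own linear axis. Hmox1, Steap3 and Slc11a2 have irradiated libraries that all lie above the controls, while control 3 lies beside the irradiated libraries for Ncoa4 and Ftl1.

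Radiotherapy is the one contrast of the study, and the question put to it here is which iron transcripts differed after it. Of the 9 members tested, Hmox1, Steap3 and Slc11a2 rose and none fell, at a Benjamini-Hochberg adjusted p below 0.05 from limma on log2(FPKM + 1). Over all 11103 genes tested, 9.24% were called higher and 2.77% lower. At an unadjusted p below 0.05 the same 3 members passed (33.3% of 9), against 38.3% of all genes. The groups did not overlap for these 3 members (33.3% of 9), against 45.4% of all genes. The median log2 fold change was 0.36 for the members and 0.17 for all genes. In bulk RNA, fewer cells with a transcript and less of it per cell cannot be told apart.

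The libraries were not alike in spread, and one control stood apart. The median gene had an SD of 0.08 on the log2 scale among irradiated libraries and 0.30 among controls, and controls 1 and 2 correlated at 0.989 across genes, against 0.956 and 0.928 with control 3. Control 3 was closer to the irradiated libraries than to the other controls, at 0.9641, 0.9605 and 0.9664 with irradiated libraries 1, 2 and 3. Controls 1 and 2 correlated with irradiated libraries at 0.911 to 0.947. The reason for this was not tested. Without control 3, 5 members were called higher and 1 lower, in a setting that called 45.8% of 11053 genes higher and 23.3% lower. Without control 2, Hmox1 and Steap3 were called higher and no member lower, and limma called 4.01% of genes higher and 0.950% lower. Without control 1 no member was called, against 1.48% of genes called higher and 0.145% lower. No member was called without irradiated library 1, 2 or 3 either, where limma called 0.424%, 0.507% and 0.782% of genes higher and 0.0921%, 0.0921% and 0.129% lower. Scaling mattered as well. After quantile normalization the median change over all genes was -0.02 rather than 0.17, with 5.81% of genes called higher and 5.41% lower, and the members called were Hmox1, Steap3 and Fth1. A trimmed mean of log ratios gave a median of 0.03, with 6.53% called higher and 3.86% lower, and of the members it called Hmox1 and Steap3.

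SCC7 carries the simple-epithelial keratins but not those that define squamous epithelium. Krt8 measured 371 to 393 FPKM in irradiated libraries and 487 to 1362 in controls and did not pass, while Krt18 fell to 100.3 to 112.5 FPKM in irradiated libraries, against 211.5 to 528 in controls (log2 fold change -1.82, limma adjusted p = 0.0261). Krt5, Krt14, Krt6a, Krt17, Epcam and Cdh1 were below 1 FPKM in all 6 libraries. Trp63 was at 1.1 FPKM in control 3 and at 0.05 to 0.21 in the other libraries. The summed level of the 9 epithelial markers was 485 to 496 FPKM in irradiated libraries and 700 to 1891 in controls. Among macrophage markers, 7 of 8 were in the table and their sum was 28.5 to 29.2 FPKM in irradiated libraries and 17.4 to 22.7 in controls. Cd14 was the largest part of it, at 19.2 to 21.6 FPKM in irradiated libraries and 13.5 to 18.7 in controls. Cd68 measured 4.01 to 5.63 FPKM in irradiated libraries and 2.11 to 4.52 in controls, and neither gene passed (limma adjusted p = 0.180 and 0.183). Lyz2 measured 2.37 to 3.53 FPKM in irradiated libraries and 0.30 to 0.78 in controls, so that it reached the filter only through the irradiated group, while the defining genes Ptprc, Adgre1, Csf1r and Itgam were at most 0.06 FPKM in any library. Of 6 fibroblast markers, 5 were tested and Col1a1 and Dcn rose (log2 fold changes 1.23 and 1.54, limma adjusted p = 0.00474 and 0.0086). Dcn measured 4.12 to 7.26 FPKM in irradiated libraries and 0.94 to 1.28 in controls. With control 1 below 1 FPKM, Dcn also reached the filter only through the irradiated group, so its call is no support. Col1a2, Pdgfra and Pdgfrb did not pass (log2 fold changes 0.05, 0.17 and -0.18, limma adjusted p = 0.90, 0.56 and 0.81). The sum of the list was 168 to 193 FPKM in irradiated libraries and 111 to 212 in controls. The part of these cell type markers in the iron results was not tested.

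Of the 3 uptake members, Steap3 and Slc11a2 rose and Tfrc did not pass the test. Steap3, the endosomal ferrireductase (chromosome 1, 120226414 to 120271081), measured 50.7, 52.3 and 54.9 FPKM in irradiated libraries, against 34.6, 25.2 and 34.6 FPKM in controls. Every irradiated library lay above every control, and control 2 was the low one. The log2 fold change was 0.74 (SE 0.16, limma adjusted p = 0.0348), a 1.67-fold rise on the log2(FPKM + 1) scale. It stayed between 0.59 and 0.81 when any 1 library was left out, but the call was lost without control 1 (limma adjusted p = 0.112) and without irradiated library 1, 2 or 3 (0.182, 0.196 and 0.167).

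Slc11a2, which encodes DMT1 (chromosome 15, 100387898 to 100424209), measured 23.2, 25.8 and 26.4 FPKM in irradiated libraries, against 17.3, 16.9 and 13.6 FPKM in controls. The groups did not overlap, and control 3 was here the lowest library, so that this difference was largest against control 3 (0.83) and smaller against controls 1 and 2 (0.51 and 0.54). The log2 fold change was 0.63 (SE 0.14, limma adjusted p = 0.0385). The call did not survive either scaling, at limma adjusted p = 0.0878 after quantile normalization and 0.0919 after a trimmed mean of log ratios, nor the loss of control 1 or 2 (0.123 and 0.0618) or of irradiated library 1, 2 or 3 (0.182, 0.207 and 0.173). Messenger isoforms of Slc11a2 with and without the iron-responsive element share this row and were not separated.

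Tfrc, the receptor itself (chromosome 16, 32608896 to 32632794), had the change nearest to 0 but for Aco1. It measured 14.3, 13.5 and 16.4 FPKM in irradiated libraries, against 17.5, 15.6 and 14.6 FPKM in controls. The groups overlapped, and the log2 fold change was -0.10 with a 95% interval of -0.43 to 0.22 (limma adjusted p = 0.59). Among the 9 tested members it was the one whose SD on the log2 scale was no larger in controls, at 0.14 in irradiated libraries and 0.12 in controls. In all settings its log2 fold change lay between -0.31 and -0.04 and was never called.

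Neither ferritin chain passed the test, and their controls differed widely. Fth1, the heavy chain with ferroxidase activity (chromosome 19, 9980600 to 9985111), measured 3106, 3572 and 4159 FPKM in irradiated libraries, against 3758, 3772 and 2272 FPKM in controls. Controls 1 and 2 fell within the irradiated range and control 3 lay below it. Its log2 fold change was 0.17, like the median gene, with a 95% interval of -0.44 to 0.78 (limma adjusted p = 0.628). After quantile normalization it was 0.80 and was called higher (limma adjusted p = 0.0162), and without control 3 it was -0.07.

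Ftl1, the light chain that helps form the iron core (chromosome 7, 45457944 to 45459886), measured 3631, 3885 and 3991 FPKM in irradiated libraries, against 5968, 7192 and 3536 FPKM in controls. Controls 1 and 2 were above all irradiated libraries and control 3 was below them. The difference was -0.48 on the log2 scale, with a 95% interval of -1.15 to 0.20 (limma adjusted p = 0.242). Without control 3 it was -0.77 and was called lower (limma adjusted p = 0.000626), and after quantile normalization it was 0.11. Of all 50-base windows of the Ftl1 mRNA, 78.9% also occur in annotated transcripts of other genes, Ftl1-ps1 among them, none of which has a row in the table, so reads of Ftl1 could have been split or gathered by the counting. For Fth1 this share was 4.01%.

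The ratio of the chains within each library did not overlap between the groups, although the design cannot reach p below 0.05 and neither chain was called by itself. The log2 ratio of Fth1 to Ftl1 was -0.22, -0.12 and 0.06 in irradiated libraries, against -0.67, -0.93 and -0.64 in controls. Every irradiated library lay above every control, control 3 included, and a ratio within a library does not depend on that library's scale. Among single genes, 45.4% of all tested did not overlap either. The share of other gene pairs whose ratio separates the groups was not computed. The means were -0.10 ± 0.14 in irradiated libraries and -0.75 ± 0.16 in controls (SD, n = 3 each), a difference of 0.65 (exact two-sided permutation test, p = 0.1, the smallest that 3 against 3 can give). Leaving out any 1 library gave 0.56 to 0.71. The sequence that Ftl1 shares with other genes (78.9% of its windows) bears on this ratio as well, and its part was not tested. The correction for transcript length and GC content gave 0.54. The log2 ratio of Tfrc to Fth1 was -7.84 ± 0.15 in irradiated libraries and -7.56 ± 0.34 in controls, and the groups overlapped (difference -0.27, exact two-sided permutation test, p = 0.2).

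**Figure D2:**
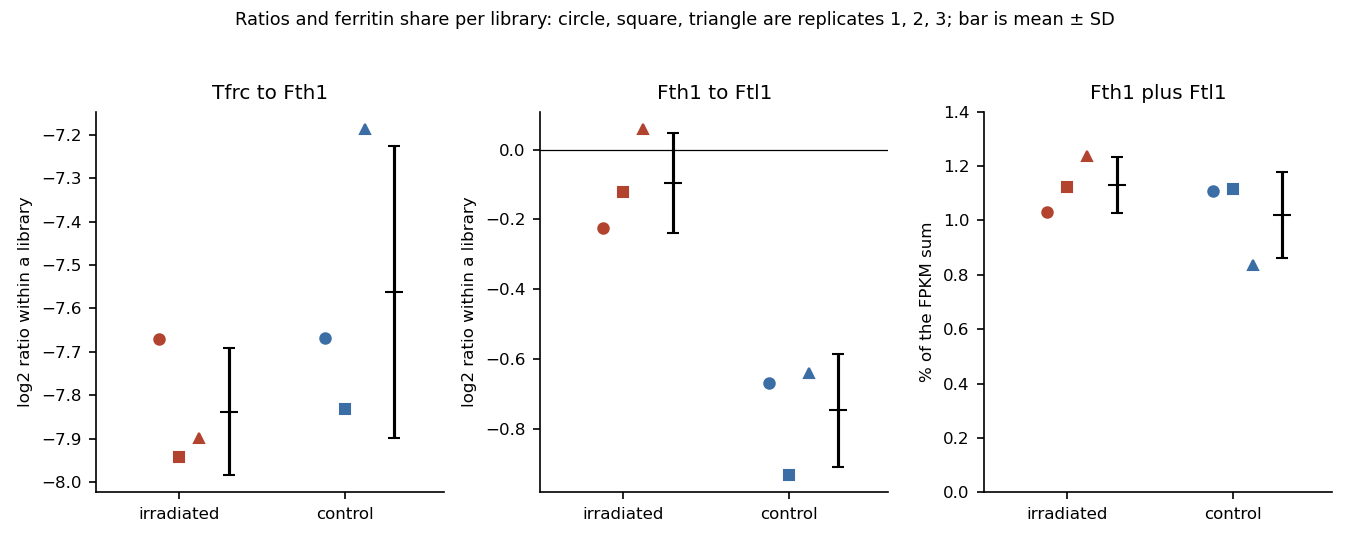
Log2 ratios of Tfrc to Fth1 and of Fth1 to Ftl1 within each library, and the share of the FPKM sum taken by both ferritin chains, irradiated on the left and control on the right. The Fth1 to Ftl1 ratio separates the groups, with irradiated libraries at -0.22 to 0.06 and controls at -0.93 to -0.64, and the other panels overlap.

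Ncoa4, the cargo receptor that delivers ferritin to the lysosome (chromosome 14, 32159879 to 32179855), had the widest spread among controls. It measured 43.5, 40.9 and 42.0 FPKM in irradiated libraries, against 22.7, 11.3 and 41.9 FPKM in controls. Control 3 lay within the irradiated range and the other controls below it. The log2 fold change of 0.89 was larger than those of Steap3 and Slc11a2, with a 95% interval of -0.10 to 1.89 (limma adjusted p = 0.158). It was 1.34 and called without control 3 (limma adjusted p = 0.00124) and 0.01 for the irradiated mean over control 3 alone. The annotated pseudogene Gm6768 shares 43.1% of the 50-base windows of the Ncoa4 mRNA and has no row in the table.

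Hmox1 showed the largest rise among the members. This haem oxygenase (chromosome 8, 75093618 to 75100593) is induced by haem and oxidative stress and frees iron, biliverdin and carbon monoxide. It measured 192, 205 and 188 FPKM in irradiated libraries, against 84.4, 61.7 and 105 FPKM in controls. The groups did not overlap, and the irradiated mean exceeded each control by itself, by 1.20, 1.64 and 0.88 on the log2 scale for controls 1, 2 and 3. Its log2 fold change was 1.24 (SE 0.21, limma adjusted p = 0.0185), a 2.36-fold rise. It was 1.04 to 1.42 when any 1 library was left out and was called under both scalings, but the call was lost without control 1 (limma adjusted p = 0.0943) and without irradiated library 1, 2 or 3 (0.139, 0.155 and 0.12). No 50-base window of its mRNA occurs in another annotated gene.

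The exporter Slc40a1 (chromosome 1, 45908070 to 45926532) was at most 0.06 FPKM, as given above, and no fold is given. Of the release list, 2 genes were tested, none was called by limma and none had an unadjusted p below 0.05. Without any filter limma called 1 of 7 genes of this list higher, Bmp6, against 6.49% of all 17030 genes. Bmp6 was at most 0.33 FPKM in irradiated libraries and 0 in all controls, so its call is no support. Heph, which oxidises iron as it leaves through ferroportin, was at most 0.03 FPKM. Ceruloplasmin (Cp), the secreted ferroxidase, measured 23.0, 26.5 and 25.9 FPKM in irradiated libraries, against 3.59, 2.69 and 30.2 FPKM in controls. Control 3 was the highest of all libraries, and the log2 fold change of 1.69 did not pass (limma adjusted p = 0.149).

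The iron regulatory proteins did not pass the test. Aco1 (chromosome 4, 40143265 to 40199009) is also the cytosolic aconitase when it carries an iron-sulphur cluster. It measured 14.4, 14.5 and 15.7 FPKM in irradiated libraries, against 14.0, 11.8 and 16.6 FPKM in controls (log2 fold change 0.08, 95% interval -0.28 to 0.44, limma adjusted p = 0.714). The irradiated values of Aco1 lay inside the control range. Ireb2 (chromosome 9, 54862658 to 54912534) measured 13.8, 13.6 and 13.7 FPKM in irradiated libraries, against 9.24, 8.16 and 15.1 FPKM in controls. Control 3 was above all irradiated libraries and the other controls were below them. The log2 fold change of Ireb2 was 0.36 (95% interval -0.17 to 0.88, limma adjusted p = 0.256), and it was 0.60 and called without control 3 (limma adjusted p = 0.00106) and -0.05 after correction for transcript length and GC content.

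**Figure D3:**
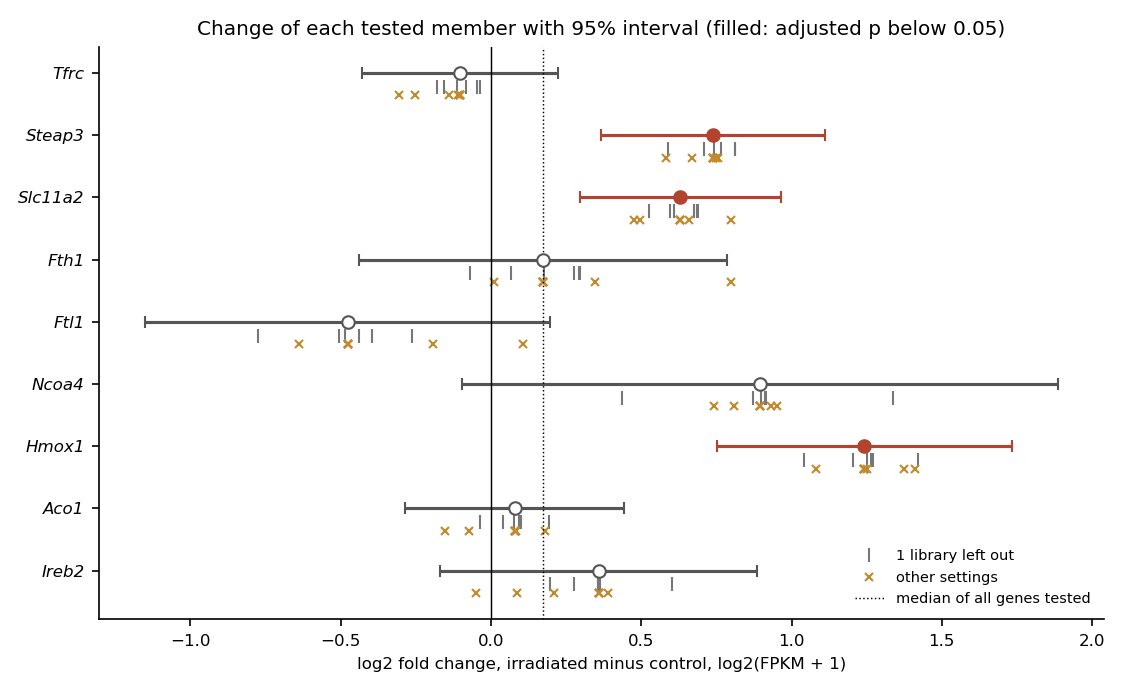
Log2 fold change (irradiated minus control) of the 9 tested members with 95% intervals from limma, filled where the adjusted p is below 0.05. Ticks below each point are fits with 1 library left out and crosses are other settings, and the dotted line is the median of all genes, 0.17. The intervals of Hmox1, Steap3 and Slc11a2 exclude 0.

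Set against each control in turn, the members fell into different patterns. Hmox1, Steap3 and Slc11a2 were higher in the irradiated mean against every control by at least 0.51, Ncoa4 by 0.01 to 1.81, while Fth1, Ftl1, Aco1, Ireb2 and Tfrc changed sign with the control chosen. Control 3 was the control nearest to the irradiated mean for 5 of 9 members and for 64.9% of all genes tested, and control 1 was nearest for the other 4, Steap3, Slc11a2, Fth1 and Aco1. The controls spread more than the irradiated libraries for 8 of 9 members and for 89.8% of all genes.

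**Figure D4:**
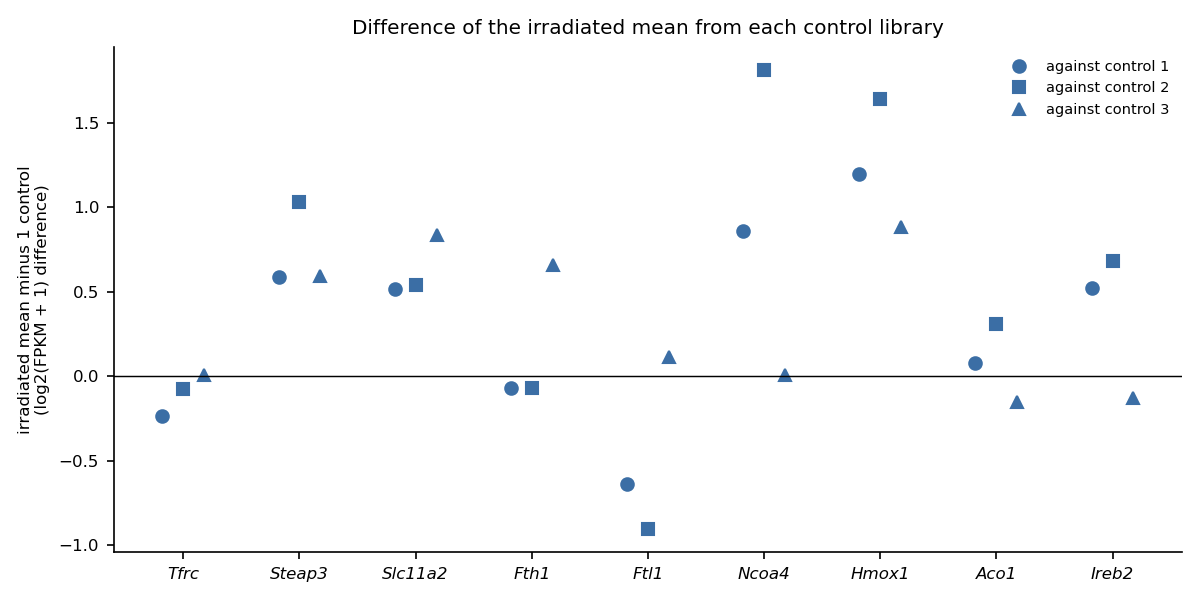
Difference on the log2(FPKM + 1) scale between the mean of the irradiated libraries and each single control, for the 9 tested members, as a description with no test. Ncoa4 ranges from 1.81 against control 2 to 0.01 against control 3, and Hmox1 stays at 0.88 or above.

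Other genes of iron handling were taken from 8 lists with 129 symbols, of which 119 were in the table and 102 were tested. Of these 102, 8 rose (7.84%) and 5 fell (4.90%), against 9.24% and 2.77% of all genes, with a median log2 fold change of 0.15 against 0.17. Apart from that of Lcn2, each of these calls was lost without control 1 and without any 1 irradiated library. Lcn2 reached the filter only through the irradiated libraries in which it was high, so its call is no support, and with 1 of those libraries left out it was not tested.

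Among 11 further uptake genes tested, Lcn2 and Mcoln1 rose and Scara5 fell (list median 0.30). Lipocalin-2 (Lcn2), a secreted protein that binds iron-loaded siderophores, measured 28.7, 39.2 and 30.2 FPKM in irradiated libraries, against 0.40, 0.10 and 0.11 FPKM in controls. All controls were below the filter of 1 FPKM, so the gene had to differ to be tested, and its values are given as a description. The log2 fold change was 4.80 on the log2(FPKM + 1) scale and 6.88 with a pseudocount of 0.1, since the controls are near 0. Its cell-surface receptor gene Slc22a17 was at most 0.03 FPKM. Scara5, a scavenger receptor that takes up ferritin, measured 13.7, 13.2 and 13.6 FPKM in irradiated libraries, against 31.5, 26.2 and 41.4 FPKM in controls. All irradiated libraries were below all controls (log2 fold change -1.21, SE 0.18, limma adjusted p = 0.0131). Mcoln1, a lysosomal channel that can pass iron to the cytosol, averaged 30.2 ± 2.11 FPKM in irradiated libraries and 18.2 ± 1.18 FPKM in controls (log2 fold change 0.70, limma adjusted p = 0.0212).

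Among 8 further storage and ferritinophagy genes tested, Herc2, a ubiquitin ligase that targets NCOA4 for degradation, rose to 7.31 ± 0.27 FPKM in irradiated libraries, against 3.52 ± 1.17 FPKM in controls (log2 fold change 0.91, limma adjusted p = 0.0374). The autophagy receptor Tax1bp1 averaged 84.1 ± 1.93 FPKM in irradiated libraries and 58.9 ± 15.3 FPKM in controls and did not pass (log2 fold change 0.54, limma adjusted p = 0.0957). Pcbp2, an iron chaperone that loads ferritin, did not pass either (log2 fold change 0.31, limma adjusted p = 0.348).

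Genes that make or move haem, the substrate of HMOX1, included 2 that rose and 1 that fell among 20 tested (list median 0.11). Alas1, which encodes the rate-limiting enzyme of haem synthesis, measured 12.8, 12.8 and 14.9 FPKM in irradiated libraries, against 6.35, 5.16 and 7.19 FPKM in controls. All irradiated libraries were above all controls (log2 fold change 1.01, SE 0.16, limma adjusted p = 0.0138). Slc48a1, a haem importer of the endolysosome, rose to 104 ± 4.77 FPKM in irradiated libraries, against 63.2 ± 4.46 FPKM in controls (log2 fold change 0.71, limma adjusted p = 0.0203). Blvrb, which reduces biliverdin made by haem oxygenase, did not pass (log2 fold change 0.46, limma adjusted p = 0.123).

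Most mitochondrial genes of iron-sulphur clusters and iron import had log2 fold changes below 0, with few calls. Of 22 tested, 36.4% had a positive log2 fold change, against 62.8% of all genes, and 31.8% were lower without overlap, against 13.7% of all genes. Among them, Nfs1, the cysteine desulphurase that supplies the sulphur, rose (log2 fold change 0.73, limma adjusted p = 0.0473) and the electron donor Fdx1 fell (log2 fold change -0.67, limma adjusted p = 0.0323), with a list median of -0.19 on the log2 scale. Slc25a37, mitoferrin 1, which imports iron into mitochondria, measured 97.6, 97.8 and 77.5 FPKM in irradiated libraries, against 32.9, 29.2 and 65.6 FPKM in controls, and missed the threshold (log2 fold change 1.16, limma adjusted p = 0.0529). Cisd1, an iron-sulphur protein of the outer mitochondrial membrane, measured 54.8, 56.3 and 56.6 FPKM in irradiated libraries, against 132.9, 129 and 70.6 FPKM in controls. The groups did not overlap, but the difference did not pass (log2 fold change -0.92, limma adjusted p = 0.0575), and neither did that of the ferredoxin Fdx2 (log2 fold change -1.20, limma adjusted p = 0.109). Of 11 cytosolic genes tested, Ndor1, which passes electrons to the cytosolic assembly machinery, rose (log2 fold change 0.82, limma adjusted p = 0.0133), and that call was lost after quantile normalization. Nubp1 and Bola2, which also serve cytosolic assembly, were lower without passing (log2 fold changes -0.65 and -1.44, limma adjusted p = 0.0606 and 0.0877). The call of Nfs1 was lost under a trimmed mean of log ratios, without control 2, with other filters and with a pseudocount of 0.1.

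Of 12 regulators of iron and of Hmox1, limma called none, with 3 at an unadjusted p below 0.05 (25.0%, against 38.3% of all genes). Bach1, the haem-sensing repressor of Hmox1, measured 9.68, 9.36 and 9.14 FPKM in irradiated libraries, against 4.36, 3.19 and 6.82 FPKM in controls. The groups did not overlap, but the difference missed the threshold (log2 fold change 0.89, limma adjusted p = 0.0526). Bach1 was the regulator called without the trend and robust options and after the length and GC correction (limma adjusted p = 0.0482 and 0.0387). It was also called without control 3. Among 16 targets of NRF2, an activator of Hmox1 and of the ferritin genes, 1 rose and 2 fell. In this list 43.75% were higher and 18.75% lower without overlap, against 31.8% and 13.7% of all genes. An unadjusted limma p below 0.05 was reached by 50%, against 38.3% of all genes. The gene that rose was Osgin1 (log2 fold change 0.56, limma adjusted p = 0.0469), which restrains growth under oxidative stress. Those that fell were Tkt and Taldo1 (log2 fold changes -0.59 and -1.11, limma adjusted p = 0.0469 and 0.0471), enzymes of the pentose phosphate pathway. All 3 calls were lost without any filter, with a filter at 5 FPKM and with a pseudocount of 0.1, and each under 1 or both of the other scalings. Gclc, the catalytic subunit of glutathione synthesis, averaged 31.7 ± 2.16 FPKM in irradiated libraries and 12.7 ± 8.62 FPKM in controls and did not pass (log2 fold change 1.46, limma adjusted p = 0.0685).

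**Figure D5:**
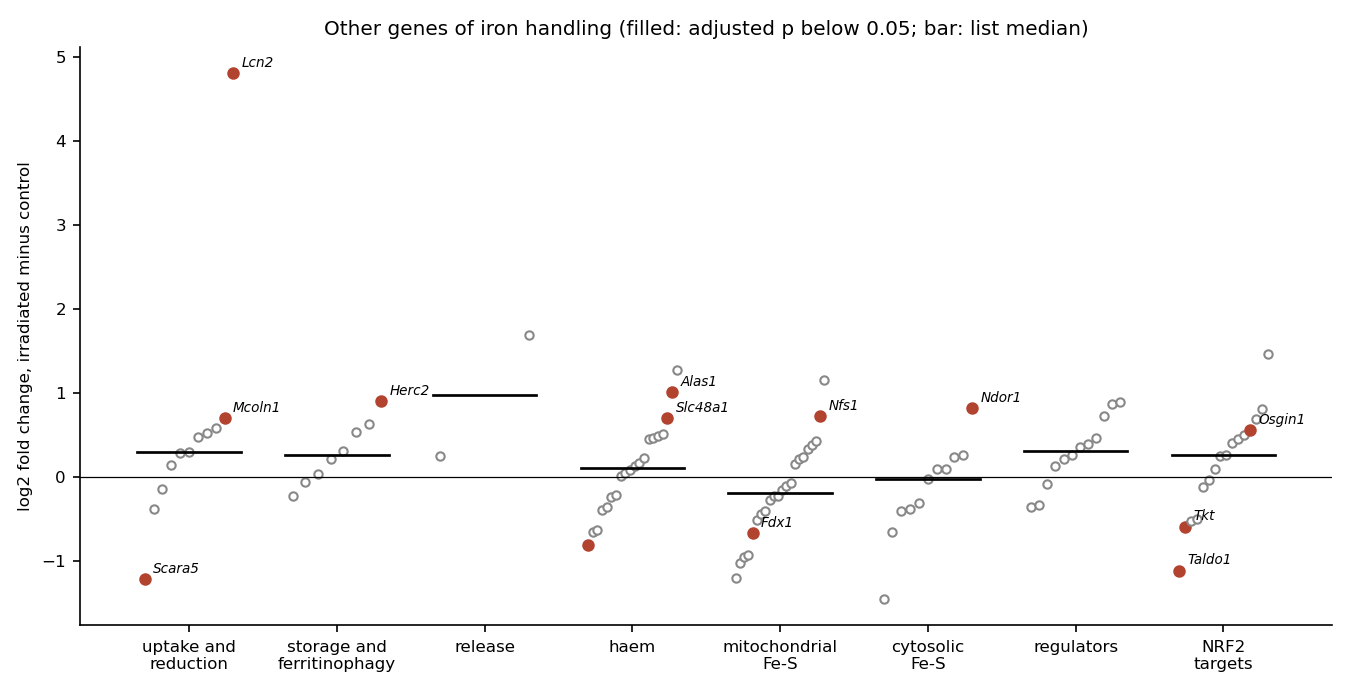
Log2 fold change (irradiated minus control) of 102 tested genes in 8 lists of iron handling, filled where the limma adjusted p is below 0.05 and mostly named there, with a bar at each list's median. Lcn2, with controls near 0, is at 4.80 on the log2(FPKM + 1) scale, and the other called genes lie between -1.21 and 1.01.

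The genes whose profile over the 6 libraries was most like that of a member were found by Pearson correlation of log2(FPKM + 1) over 8484 genes with a mean of at least 5 FPKM, as a description. For Hmox1, Tpp1 and Gspt2 were among the closest, both at 0.998 or above. Tpp1, for example, measured 76.6, 82.6 and 75.9 FPKM in irradiated libraries, against 33.1, 23.1 and 43.4 FPKM in controls. For Fth1 they were Wdr46, Ccdc86 and Dcaf13 (0.998, 0.997 and 0.995), and for Tfrc they were Hmgb1, Nt5c3b and Cinp (0.977, 0.956 and 0.952). The 6 libraries share 2 groups and a control that stands apart, and how many genes reach values this high was not counted.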

How the data were processed

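Per the labels' protocols, total RNA of SCC7 cells was treated with DNase and depleted of ribosomal RNA before library construction. The submitters' processing notes name HISAT and build GRCm38.p6, while the sources used here do not give the counting tool, annotation or filters. The deposited values are FPKM, per the file headers, with 1 column per sample, rounded to 2 decimals. The FPKM sum was 652691 to 663489 in irradiated libraries and 693961 to 982553 in controls. FPKM keeps no read number, so depth is unknown and counting intervals were not computed. No 2 libraries were identical.

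The 11103 genes reaching 1 FPKM in 3 or more samples entered a limma 3.58.1 fit of log2(FPKM + 1), run in R 4.3.3 (2 groups, trend and robust options, Benjamini-Hochberg adjustment over all of them, called below 0.05). The fit assumes equal variance in both groups, although controls spread more. Fold changes on this scale understate changes of low values. Tested on simulated data with 10944 genes, the fit called 58% of 100 genes set to differ 2-fold. It also called 88% of 100 set to differ 4-fold, and 11 left equal. Whether these figures hold for the deposited libraries, where controls spread more and control 3 stood apart, was not tested. Ratios within a library were compared by exact permutation tests. GENCODE M21 gave transcript length and GC content for 16424 genes and all 10 members. Gene coordinates are RefSeq's for GRCm38.p6, 1-based. The labels give no factor besides the 2 groups, so no block was used, and whether same-numbered samples are paired is unknown.

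All 10 members are named. Further genes are those called in the lists, and at most 3 others per list with the smallest p, apart from genes named for being at or near 0, and a few genes that meet the rule are not reported here. Members, lists and tests were chosen with earlier results of these data known. Alternatives were other scalings, filters, pseudocount, fit options, a replicate block, a length and GC correction and the omission of each sample.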

Additional observations from a re-analysis of the deposited data

How the results depend on the processing

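Over 14 alternatives, the 45 genes picked by the naming rule gave 625 values, of which 480 kept direction and side of the threshold, 101 lost a call, 35 gained one and 9 changed sign. The 480 include values of genes that were not called and stayed so, and they do not measure how stable the calls were. Of 14 alternatives, the calls of Hmox1, Steap3 and Slc11a2 were kept in 9, 9 and 6. The sign changes were Aco1 after quantile normalization (-0.15), a trimmed mean of log ratios (-0.0716) and without control 2 (-0.0359), Ftl1 (0.11), Slc39a8 (-0.0377) and Erfe (-0.199) after quantile normalization, Ireb2 (-0.0490) and Slc39a8 (-0.0039) after the length and GC correction, and Fth1 without control 3 (-0.0699), and none of these genes was called with all samples and the standard settings. When 1 library was left out, Fth1 ranged from -0.0699 to 0.296 and Aco1 from -0.0359 to 0.193. Members called higher numbered 0 to 5 and lower 0 to 1 when 1 library was left out, and other iron genes 0 to 44 and 0 to 29, the highest counts being those without control 3. Over all genes, 1334 calls were made with every sample and 727 with the filter at 5 FPKM. Dropping control 1 gave 180 calls, control 2 gave 548 and control 3 gave 7638, and dropping irradiated library 1, 2 or 3 gave 56, 65 or 99. Other iron genes called lower were 3, against 5, without any filter, with the filter at 5 FPKM and with a pseudocount of 0.1. The ratio of Tfrc to Fth1 ranged from -0.41 to -0.09 and that of Fth1 to Ftl1 from 0.56 to 0.71 when 1 library was left out. With the replicate number as a block, 0 members and, among other iron genes, 2 higher and 1 lower were called (300 of all genes), at limma adjusted p = 0.055, 0.0833 and 0.0954 for Hmox1, Steap3 and Slc11a2. In exact sign-flip tests of the pairs both ratios gave p = 0.25, the smallest possible. Same-numbered samples correlated in their deviations from the group mean at -0.11, 0.02 and -0.16, and differently numbered ones at -0.17 to 0.26. With 3 samples per group these values cannot decide whether the numbers pair the samples. The cause of these losses was not tested. The depth of the libraries is unknown, so the precision of low values such as those of Slc40a1 cannot be given.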

Other observations

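The genes below were singled out after their values were seen. The haem synthesis gene Cpox and the STEAP family members Steap1 and Steap2 held some of the widest gaps between control 3 and the other controls. Cpox, the coproporphyrinogen oxidase, measured 34.3, 35.1 and 32.2 FPKM in irradiated libraries, against 7.16, 6.26 and 48.9 FPKM in controls. Steap2 measured 59.5, 59.3 and 57.2 FPKM in irradiated libraries, against 28.1, 22.5 and 112 FPKM in controls, and Steap1 73.3, 73.7 and 74.1 FPKM in irradiated libraries, against 69.0, 67.6 and 189 FPKM in controls. Control 3 was the highest library for all 3 genes, and none was called by limma.

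Hepcidin (Hamp), the hormone that closes ferroportin, was listed at 0.44, 1.32 and 0.42 FPKM in irradiated libraries and at 0 in all controls. Bmp6, which induces hepcidin in liver, was at 0.19, 0.33 and 0.21 FPKM in irradiated libraries and at 0 in controls. Both were below the filter and were not tested with it. Bmp6 was the gene of the release list that limma called without any filter, with the limit given above. The alpha-globin gene Hba-a1 measured 9.17, 14.7 and 16.0 FPKM in irradiated libraries, against 11.03, 21.6 and 3.76 FPKM in controls, while the beta-globin gene Hbb-bs was at most 0.64 FPKM and the erythroid gene Alas2 at most 0.07 FPKM.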
